A study of Sus scrofa with 37 samples.

Results

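The cytosolic ribosomal protein genes of the pig were followed in RNA sequencing counts from whole pancreas and from cultured islets. A gene was taken as a member when its Ensembl identifier carried a symbol made of RPL or RPS and a number, with or without a suffix letter, or was RPSA, RPLP0, RPLP1 or RPLP2. The S6 kinase genes, whose symbols also begin with RPS, and the binding protein gene RPS19BP1 were left out. This gave 51 genes of the 25880 identifiers in the count tables, of which 14857 carried a symbol. The members were 25 genes of the small ribosomal subunit and 26 genes of the large subunit. Among well-known family members, RPS6, RPS27, RPL13A, RPL22, RPL22L1 and RPL39L were not analysed here.

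The pancreas libraries came from pieces of 50 mg taken from the duodenal lobe when the organ was retrieved, and the islet libraries came from isolated, purified islets kept floating in culture for 7 days. Each sample carries an islet density label, High or Low, given separately for the pancreas piece and for the islets. Counts were available for 8 High and 9 Low pancreas libraries, for 8 High and 9 Low islet libraries, and for 1 islet library (animal 12AS51) without a density label. Counts for both tissues were available from 16 animals, and libraries of a group come from differently coded animals. A piece of one lobe samples only part of the organ, and the cultured islets were no longer in their tissue. Among these 16 animals the labels of the tissues do not always match. Animals 12FS135 and 12FS161 are Low for pancreas and High for islets, and 15LS26 and 16IS5 are the reverse.

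Ribosomal proteins coat and fold the ribosomal RNAs of the 2 subunits, the small one reading the messenger RNA and the large one joining the amino acids. Their messenger RNAs begin with a short run of pyrimidines, the TOP motif, through which the cell raises or lowers their translation together with that of elongation factors. Pancreatic acinar cells, which make the digestive enzymes, are among the most active protein producers of the body, and endocrine islet cells make hormones. Several family members have paralogs, and many have processed pseudogenes whose near-identical sequence can take or split reads, so single levels are uncertain where the counting could not tell copies apart. In whole tissue, fewer cells of a type and less RNA per cell cannot be told apart.

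The libraries held 265000 to 6702589 counts. In 7 of the 9 Low pancreas libraries the total was below 1000000 counts (265000 to 536014), and these are called the shallow Low libraries. They come from animals 12FS135, 14BS54, 14ES72, 14ES73, 14HS26, 14HS27 and 14HS7. All 6 pancreas libraries with an animal code beginning with 14 are among them, and no High pancreas library has that code or such a low total. In the shallow Low libraries the 10 most abundant genes took 53.3 to 71.7% of the counts, and 13 acinar genes took 1.26 to 3.33%. The same figures were 30.4 to 45.1% and 18.2 to 28.8% in the High pancreas, and 29.3 to 37.6% and 10.8 to 12.9% in the 2 other Low libraries, from 12FS161 and 15LS30. Depth, acinar share and density label therefore moved together in the pancreas, and their separate parts in the results below were not tested beyond the values given. The islet library of 12AS51 also stands apart, with 87.8% of its counts on 10 genes and 0.859% on 15 pan-endocrine genes, against 5.46 to 9.81% in the other islet libraries. Its source name, like that of islet library 11KS28, reads pancreas while its title reads islets, yet its acinar share was only 0.000552%.

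Ribosomal protein transcripts took about 1% of the counts in most libraries of either tissue and a much smaller share in the shallow Low pancreas libraries. Their share was 0.918 to 1.55% in the 8 High pancreas libraries, 0.959% and 1.14% in the Low libraries of 12FS161 and 15LS30, and 0.102 to 0.178% in the 7 shallow Low libraries. Counting error was small beside these differences: the 95% Wilson interval was 0.907 to 0.929% in the lowest High library (16IS5) and 0.163 to 0.193% in the highest shallow one (14HS7). These intervals, like the floors and ratio intervals below, cover counting error only. In islets the share was 0.729 to 1.82% with a High label and 1.02 to 1.68% with a Low label, and it was 0.145% in 12AS51. The pancreas library of that same animal held 1.37%.

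Both subunits followed the same order. In counts per 1000000 counts of a library (CPM), the 25 small subunit genes summed to 4278 to 6981 (median 5377) in the High pancreas, to 438 to 710 (median 552) in the shallow Low libraries, and to 3842 and 4937 in the other 2 Low libraries. The 26 large subunit genes summed to 4900 to 8651 (median 7196), to 560 to 1074 (median 762), and to 5744 and 6471. The ratio of the small to the large sum stayed between 0.639 and 0.873 over all libraries, shallow ones included. The summed levels thus separated the shallow libraries from all other pancreas libraries, and left the 2 deeper Low libraries at or near the lower part of the High range.

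**Figure D1:**
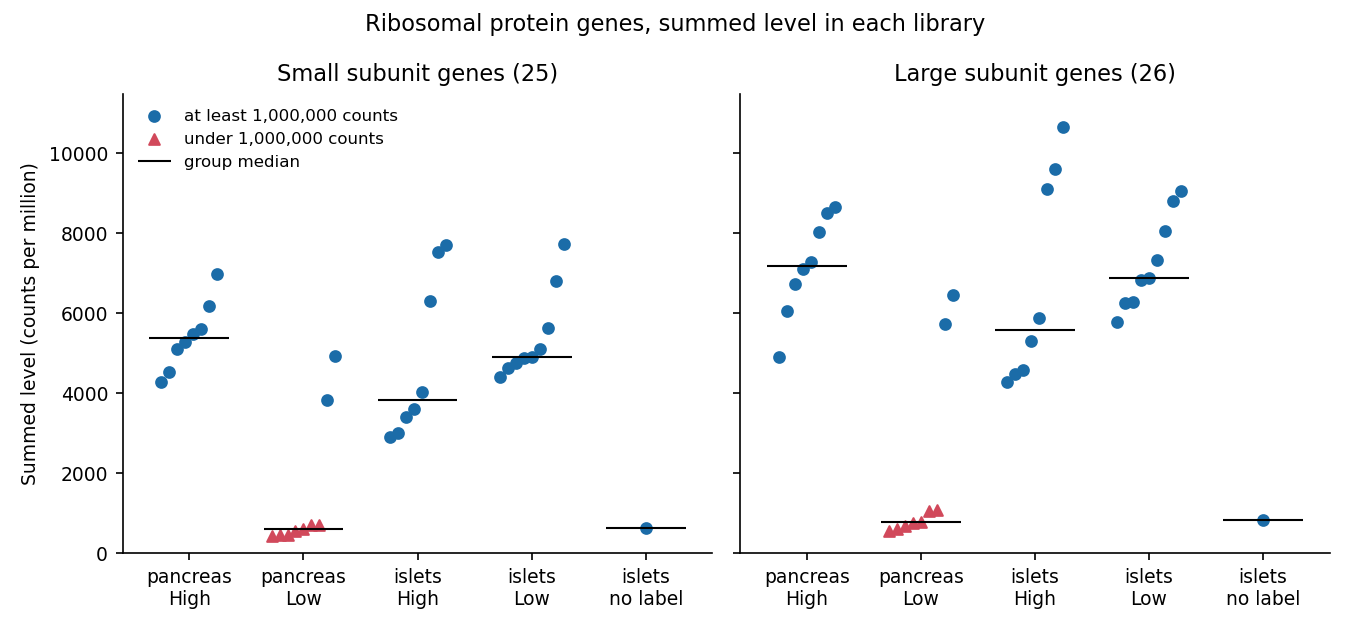
Summed level of the 25 small subunit genes (left) and the 26 large subunit genes (right) in each library, in CPM, with a line at each group's median. The 7 Low pancreas libraries under 1000000 counts (triangles) lie at 438 to 710 and 560 to 1074, near the unlabelled islet library, while the other pancreas and islet libraries reach 2919 to 7742 and 4281 to 10663.

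The first comparison asked how the genes differed between pancreas of High and Low islet density. With all 17 libraries, 43 of the 46 members that passed the filter on low counts were higher in High and 0 were lower, by edgeR's quasi-likelihood test with Benjamini-Hochberg adjustment at 0.05. Over all 10634 genes tested, 18.8% were higher and 21.5% lower. The median log2 fold change was 1.95 for the members, 1.90 for the small and 2.01 for the large subunit, and 0.07 for all genes. Of the remaining 5 members, RPL10L, RPS21 and RPL3L had too few counts for the filter, and RPL29 and RPS27A had no count in any library. A count of 0 allows up to 3 counts, which is 0.448 to 11.3 CPM depending on the library.

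Among small subunit genes, RPS12 (ENSSSCG00000004177), a protein of the subunit's beak, differed most. Its level was 273, 340 and 468 CPM (lowest, median and highest) in the 8 High libraries and 3.77, 13.5 and 36.0 CPM in the 7 shallow Low libraries. The other Low libraries had 246 CPM (12FS161) and 227 CPM (15LS30), which is below every High library but far above every shallow one. The fold change was 2.61 on the log2 scale (SE 0.51, adjusted p = 0.000528 by edgeR's quasi-likelihood test). RPSA (ENSSSCG00000037236), a small subunit protein also known as a laminin receptor, had 413, 469 and 676 CPM in High, 36.4, 60.7 and 81.9 CPM in the shallow Low libraries, and 268 and 334 CPM in the other 2. Here too all 9 Low libraries lay below all High ones, with a log2 fold change of 2.26 (SE 0.35, edgeR adjusted p = 7.43e-05).

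RPS4X, the X-linked copy of a small subunit gene, had 369, 569 and 716 CPM in High against 7.28, 26.1 and 62.2 CPM in the shallow Low libraries. Its 2 deeper Low values, 345 CPM in 12FS161 and 504 CPM in 15LS30, fell on both sides of the lowest High library. The log2 fold change was 2.46 (SE 0.53). Toward the other end, RPS28, a small protein of the subunit's head, was higher by 1.54 (SE 0.45, edgeR adjusted p = 0.00984).

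Among large subunit genes, RPL4, which lines part of the exit tunnel, changed by 2.26 on the log2 scale (SE 0.44). It had 459, 728 and 971 CPM in High, 33.7, 64.8 and 85.2 CPM in the shallow Low libraries, and 496 and 649 CPM in the other 2, both inside the High range. RPL5 and RPL11, which bind the 5S ribosomal RNA and, when free, the p53 regulator MDM2, differed by 2.11 (SE 0.50) and 1.95 (SE 0.40). RPL5 had 482 to 728 CPM in High and 13.1 to 65.5 CPM in the shallow libraries, and RPL11 had 134 to 272 and 6.17 to 55.7 CPM. RPL10, a late-joining protein near the catalytic centre, differed by 2.10 (SE 0.34), and RPL3, whose loop reaches that centre, by 1.84 (SE 0.33).

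The stalk proteins, which recruit the elongation factors to the large subunit, split by size of difference but not by direction. RPLP1 (ENSSSCG00000004970) had 265, 495 and 567 CPM in High and 10.1, 22.9 and 30.9 CPM in the shallow Low libraries, with 326 and 342 CPM in the other 2. Its log2 fold change was 2.54 (SE 0.52, edgeR adjusted p = 0.000744), against 2.01 (SE 0.37) for RPLP0, the base of the stalk, and 1.77 (SE 0.37) for RPLP2. The differences among these 3 genes were not tested.

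The 3 tested members that did not pass were RPS2, RPL7L1 and RPL26L1. RPS2, a small subunit protein at the messenger RNA entry with many copies in mammalian genomes, had 15.3 to 42.0 CPM in High, 2.32 to 15.4 CPM in the shallow libraries, and 42.5 and 35.5 CPM in the other 2 Low libraries. Its log2 fold change was 0.58 (SE 0.31, edgeR adjusted p = 0.128). It passed when the Low library of 12FS161 was left out (0.88, edgeR adjusted p = 0.0185), and with no filter on low counts (0.98, edgeR adjusted p = 0.0225). RPL7L1, a paralog of RPL7 linked to the processing of ribosomal RNA, gave 0.49 (SE 0.22, edgeR adjusted p = 0.071). It passed when the library of 12FS133, 12FS161, 16CS60 or 16IS5 was left out, at 0.56 to 0.61, and with a filter of 1 CPM or none (0.81 and 0.93). RPL26L1, a paralog of RPL26, gave −0.06 (SE 0.42, edgeR adjusted p = 0.928), with 6.73 to 23.2 CPM in High and 0 to 23.2 CPM in the shallow Low libraries. The paralogs RPS27L, a p53 target, and RPL36AL, a retrotransposed copy of RPL36A, did pass, by 1.48 (SE 0.38) and 1.42 (SE 0.34), close to RPL36A itself at 1.57 (SE 0.44).

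No call was made without the shallow libraries. With the 10 pancreas libraries of at least 1000000 counts, 8 High and 2 Low, no member passed (0 of 46). Of the 13217 genes tested, 0% did. With 2 Low libraries left, a smaller difference and fewer libraries cannot be told apart in this fit. The median log2 fold change of the members was then 0.78, against −0.01 for all genes, and 30 members had an unadjusted p below 0.05, as did 1222 of all genes. RPSA was again among the largest, at 1.23 (SE 0.29, edgeR adjusted p = 0.301), while RPS2 was at −0.12 (SE 0.28). With the acinar level as a covariate in all 17 libraries, the count was also 0 and the median 0.44. With the log2 library total as a covariate they were 0 and 0.38. The shares of all genes called in these 2 fits are not given, so neither count is read as a result about the members. With the animal code beginning with 14 as a covariate, 3 members were higher (RPSA, RPL28 and RPS9) and 0 lower, beside 0.0846% and 1.4% of all genes, and the median was 1.09. On the CPM scale, 21 of the 47 members with at least 30 counts in the High and shallow libraries together had both deeper Low libraries inside the range of the High libraries, as did 41.5% of the 15185 genes with that many counts.

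The size of the gap to the shallow libraries was described by pooling counts, 24251809 in the 8 High libraries and 2432445 in the 7 shallow ones. Of 51 members, 47 had at least 30 counts in the 2 pools together. Their median ratio of High to shallow CPM was 8.77 (8.82 for the small and 7.74 for the large subunit), against 0.94 over the 15185 genes with that many counts, and 40 members had more than 5 times the shallow level in High, as did 6.74% of those genes. The ratio was 22.9 for RPS12 (95% interval 16.7 to 32.4) and 20.5 for RPLP1 and for RPL37, a zinc-binding large subunit protein. RPS23, a protein of the decoding centre, gave 20.9 on only 3 shallow counts, with an interval of 7.12 to 102. The ratio fell to 3.10 for RPS2, 2.003 for RPL7L1 and 1.30 for RPL26L1.

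In 43 of the 47 members every High library lay above every shallow one, an arrangement found in 14.4% of the 15185 genes. RPL3L, the paralog that replaces RPL3 in heart and skeletal muscle, was the 1 member with every High library below every shallow one, as were 8.4% of the genes. It had 25 counts in the pooled shallow libraries (3.09, 10.1 and 25.5 CPM) and 10 counts in the larger High pool (0 to 0.765 CPM), a ratio of 0.04 with an interval of 0.02 to 0.09. Its level was 0.448 and 2.12 CPM in the other 2 Low libraries and 0 to 1.24 CPM in the labelled islets. RPL3L did not pass the filter on low counts. It reached the minimum of 30 pooled counts only with its counts in the shallow libraries, where it is high. These values are therefore a description and support nothing about the gene.

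**Figure D2:**
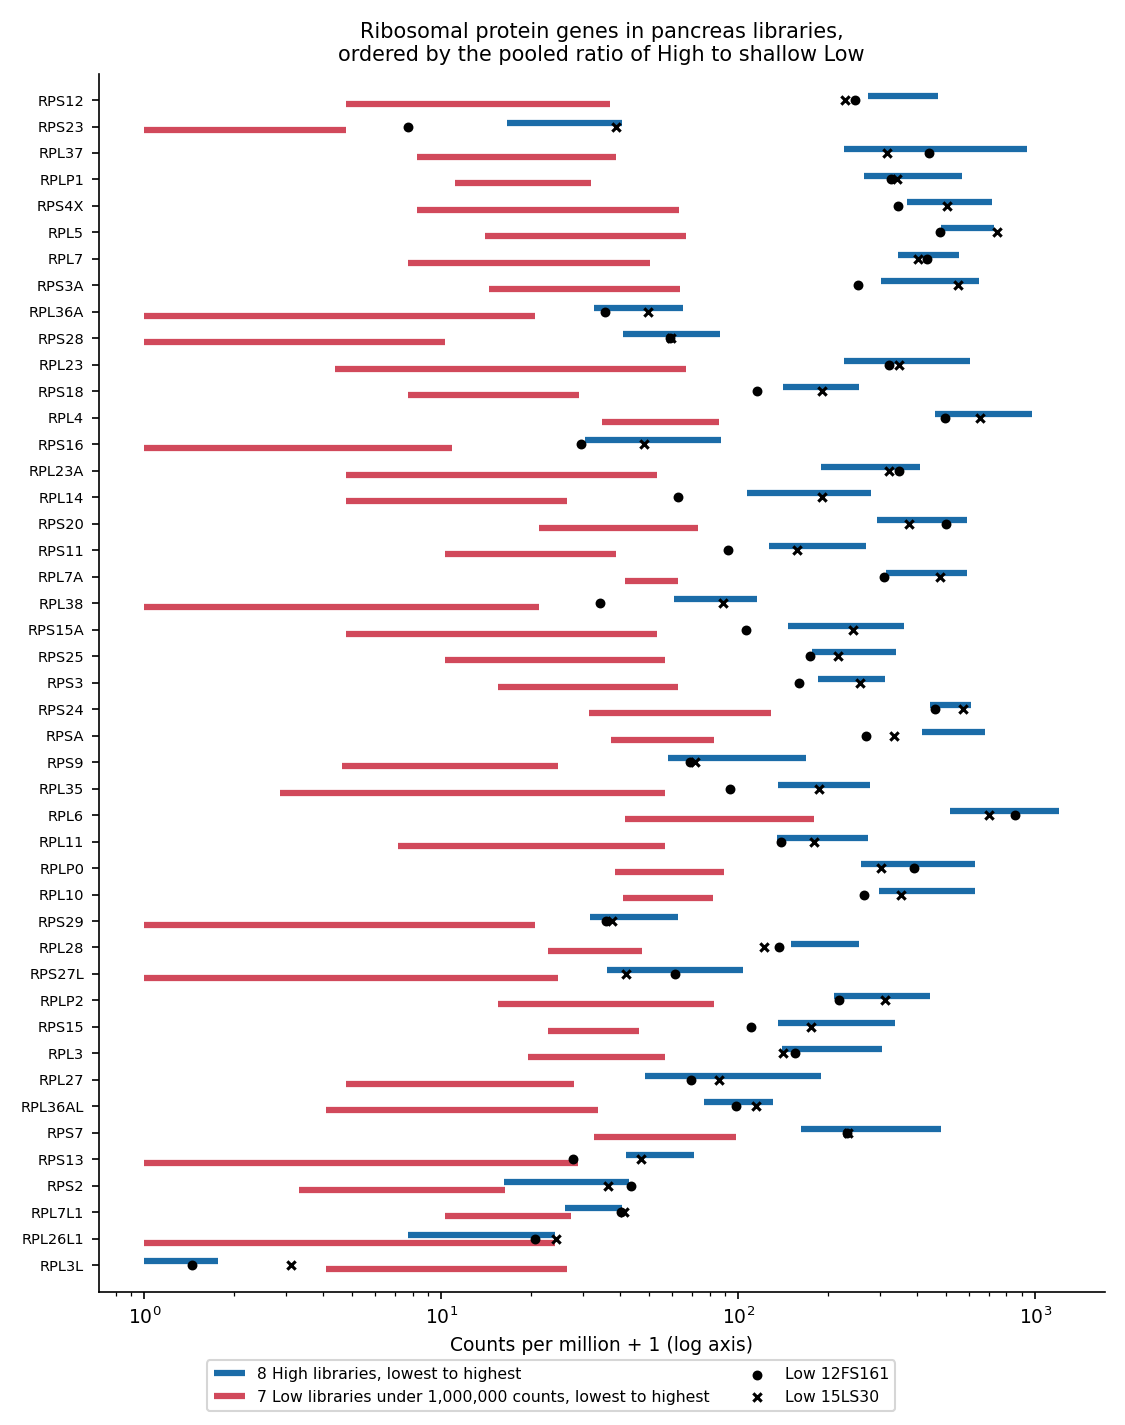
Range of each member with at least 30 pooled counts, except 2 that are not drawn, in the 8 High (blue) and the 7 shallow Low (red) pancreas libraries, as CPM + 1 on a log axis, with the 2 deeper Low libraries as black symbols. The bars overlap in RPS2, RPL7L1 and RPL26L1 and are apart with High above in every other member drawn except RPL3L. In RPL3L, which reached 30 pooled counts only with its shallow counts, High lies below. Most black symbols sit at or near the High bars.

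Partners of the ribosome, many with a TOP motif in their messenger RNAs too, were higher in High pancreas along with the members. All 17 genes of the elongation and TOP list were higher in High pancreas (median 1.57), led by TPT1, the translationally controlled tumour protein, at 2.46 (SE 0.52), and EEF1B2, an elongation factor subunit, at 2.32 (SE 0.44). TPT1 had 1865, 3484 and 4065 CPM in High, 155, 172 and 297 CPM in the shallow Low libraries, and 2611 and 2423 CPM in the other 2. Of 22 initiation factors 13 were higher and 0 lower (median 0.81), with EIF4G2 and LARP4 at the top (1.70, SE 0.39, and 1.54, SE 0.38) and EIF6 and EIF5B at the bottom (−0.17, SE 0.35, and 0.06, SE 0.25, neither passing). These lists were chosen with results of these data known, and their counts stand beside the same 18.8% and 21.5% of all genes.

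Genes that build ribosomes gave calls in both directions, as did all genes tested, of which 18.8% were higher and 21.5% lower. These shares stand beside every count of called genes in this paragraph. Of 29 ribosome biogenesis genes 5 were higher and 3 lower (median 0.09). NPM1, nucleophosmin, was higher by 1.64 (SE 0.48) and SBDS, which releases EIF6 from the large subunit, by 1.11 (SE 0.39), while BOP1 and RRP9, factors of ribosomal RNA processing, were lower (−1.27, SE 0.37, and −0.95, SE 0.36). Of 45 mitochondrial ribosomal protein genes 4 were higher and 1 lower (median 0.20), and of 13 growth control genes 4 were higher, EIF2AK3 and RHEB most (1.28, SE 0.40, and 1.18, SE 0.36). Of 6 S6 kinase genes 2 were higher, RPS6KA3 (1.22, SE 0.38) and RPS6KB1 (0.84, SE 0.32), and 2 were lower, RPS6KA4 (−2.41, SE 0.46) and RPS6KB2 (−1.55, SE 0.43). The pooled High to shallow ratio had a median of 6.04 for the elongation and TOP list, 3.16 for initiation factors, 1.07 for biogenesis, 0.90 for S6 kinases and 1.32 for mitochondrial ribosomal proteins. For markers of cell types it was 11.0 for acinar and 1.22 for pan-endocrine genes.

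**Figure D3:**
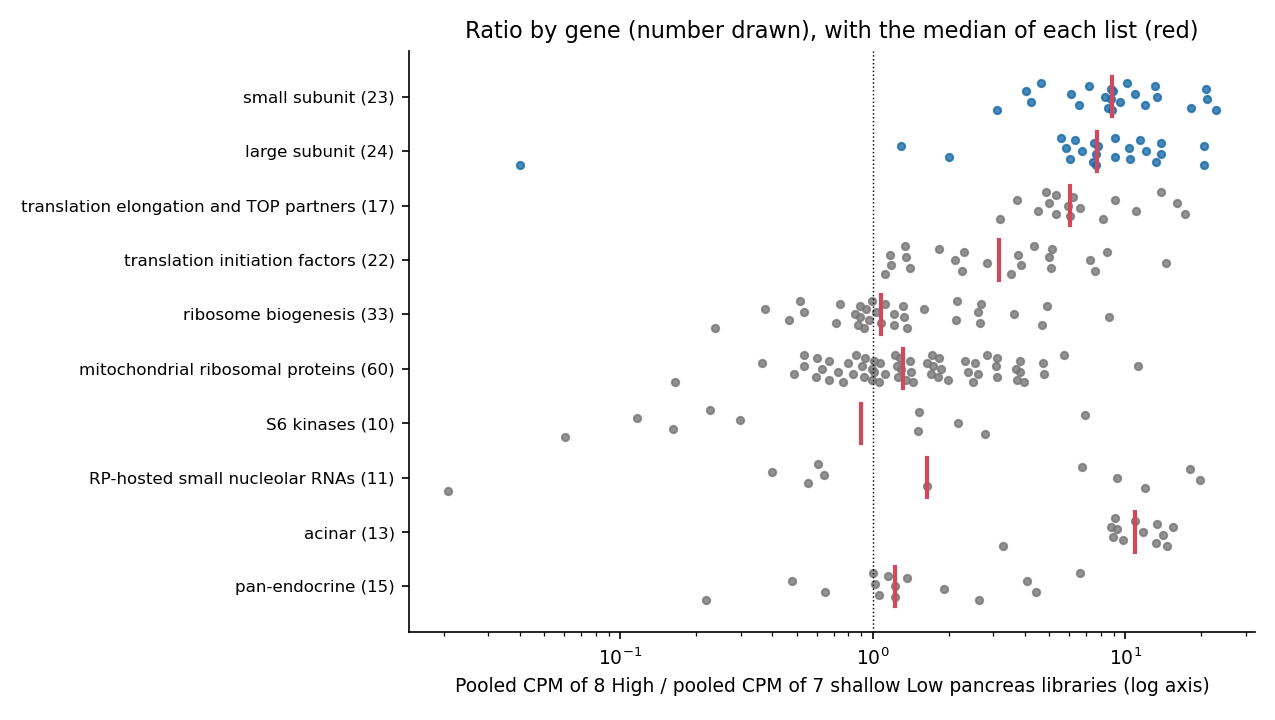
Pooled CPM of the 8 High over that of the 7 shallow Low pancreas libraries, 1 point per gene with at least 30 pooled counts, on a log axis, with each list's median in red. Both ribosomal subunits (medians 8.82 and 7.74) and the TOP partners (6.04) lie near the acinar genes (11.0), and biogenesis and mitochondrial ribosomal genes lie around 1. The 2 mitochondrial ribosomal genes with no shallow count are not drawn and enter the median at a floor of 3 counts over the pool.

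Small nucleolar RNAs, which guide the chemical marking of ribosomal RNA, are often encoded in introns of ribosomal protein and translation factor genes. Of 10 tested genes of this kind 3 were higher and 2 lower in High pancreas, beside 18.8% and 21.5% of all genes. SNORA48, SNORA3A and SNORD33 were higher (1.72, SE 0.53, then 1.67, SE 0.51, and 1.21, SE 0.46), and SNORA66 and SNORA68 were lower (−5.51, SE 0.71, and −1.30, SE 0.38). SNORA66 had 1.60, 16.3 and 43.7 CPM in High, 60.9 and 31.8 CPM in the Low libraries of 12FS161 and 15LS30, and 728, 886 and 1091 CPM in the shallow ones. Its pooled CPM was 48.3 times higher in the shallow libraries than in High, while RPL5, its host gene in human, was 13.9 times lower there. Whether SNORA66 lies within RPL5 in the pig was not checked, and short RNAs are captured unevenly by library preparation, whose part here was not tested.

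The remaining small nucleolar RNAs of the list spread between these. The High to shallow ratio was 19.8 for SNORD83, on 1 shallow count (interval 3.51 to 784), 6.72 for SNORD35A, 0.64 for SNORD34, 0.60 for SNORA52 and 0.55 for SNORA62. So the list held both the lowest ratio of all genes named here and some of the highest.

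**Figure D4:**
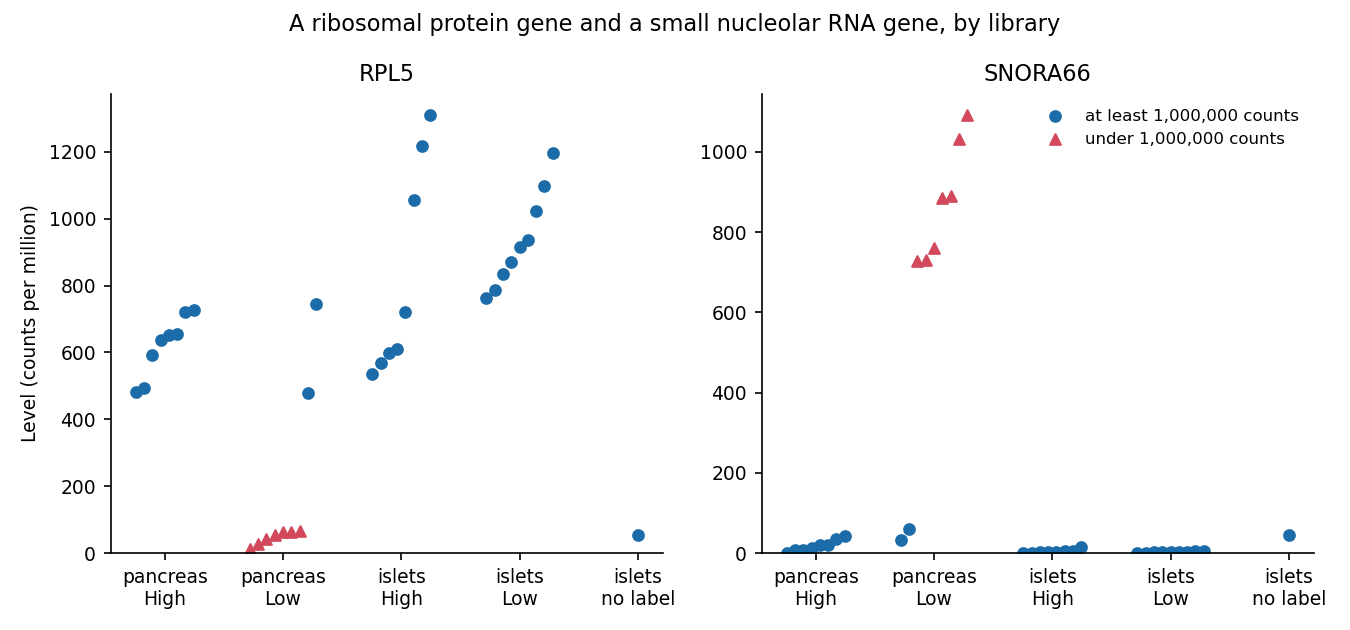
CPM of RPL5 (left) and of the small nucleolar RNA gene SNORA66 (right) in each library by tissue and density label. RPL5 is at 13.1 to 65.5 and SNORA66 at 728 to 1091 in the 7 shallow Low pancreas libraries (triangles), and RPL5 is at 477 or more in the other pancreas libraries, where SNORA66 stays at 60.9 or less.

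The next comparison asked the same of cultured islets. Between 8 High and 9 Low islet libraries no member passed (0 of 46 by edgeR's quasi-likelihood test, and 0% of 12070 genes), and DESeq2 and limma-voom called none either. At an unadjusted p below 0.05 there were 0 members and 257 genes. The median log2 fold change of the members was 0.00. The values furthest apart were 0.24 (SE 0.26) for RPS15, 0.23 (SE 0.29) for RPS7 and 0.19 (SE 0.11) for RPL26L1, and −0.30 (SE 0.24) for RPL36A, −0.26 (SE 0.31) for RPS15A and −0.24 (SE 0.17) for RPS4X, all with an edgeR adjusted p of 0.999.

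The ranges of High and Low islets overlapped for every member with a count. RPSA had 85.1, 126 and 212 CPM in High and 121, 149 and 214 CPM in Low islets, a log2 fold change of −0.05 (SE 0.19). RPS4X had 370, 507 and 964 CPM against 618, 699 and 1039 CPM, and RPL36A had 28.9, 41.3 and 98.4 CPM against 51.9, 66.1 and 104 CPM. The High islets were the more spread out: 5 of them (11KS28, 12FS131, 12FS133, 12FS161 and 15AS28) had a ribosomal protein share below every Low library, at 0.729 to 0.993%, and 2 (12FS135 and 16CS60) had a share above every Low library, at 1.73% and 1.82%. The elongation and TOP list likewise had 0 of 17 genes passing (median −0.04), and the biogenesis list 0 of 32 (median 0.01).

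Islets were then compared with pancreas. With all 35 libraries, 2 of 46 members were higher in islets and 6 lower, where 31.1% and 31.5% of the 12339 genes tested were higher and lower, and the median of the members was −0.04. The higher genes were RPL14, a large subunit protein (0.95, SE 0.33, edgeR adjusted p = 0.0115), and RPL26L1 (0.86, SE 0.20, edgeR adjusted p = 0.000195). The lower ones were RPS2 (−1.77, SE 0.19), RPSA (−1.61, SE 0.32), RPS27L (−1.56, SE 0.25), RPLP0 (−1.13, SE 0.31), RPL10 (−1.03, SE 0.32) and RPL28, a large subunit protein particular to eukaryotes (−0.84, SE 0.29). These values mix the shallow pancreas libraries and the islet library of 12AS51 with the rest. With the animal as a block over the 32 libraries of the 16 animals with both tissues, 5 members were higher and 3 lower, beside 28.5% and 26.9% of 12138 genes. RPL5, RPS3A and RPS3 then joined RPL14 and RPL26L1 among the higher genes, at 1.30 (SE 0.53), 1.23 (SE 0.51) and 1.003 (SE 0.42). RPS2, RPS27L and RPSA were again lower, while RPLP0, RPL10 and RPL28 no longer passed (edgeR adjusted p = 0.117, 0.138 and 0.212).

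Over the 27 libraries of at least 1000000 counts without 12AS51, the same 6 genes were lower by more. RPSA had 85.1, 146 and 214 CPM in the 17 labelled islet libraries and 268, 445 and 676 CPM in the 10 pancreas libraries, with no overlap, and a log2 fold change of −2.22 (SE 0.17, edgeR adjusted p = 9.12e-13). RPS2 had 2.18, 9.92 and 15.2 CPM against 15.3, 27.1 and 42.5 CPM, and RPS27L had 8.65, 20.7 and 33.7 CPM against 35.3, 54.5 and 103 CPM, again without overlap. Their log2 fold changes were −2.03 (SE 0.15) and −1.99 (SE 0.15).

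RPLP0, at 92.4 to 328 CPM in islets and 257 to 624 CPM in pancreas, overlapped and changed by −1.77 (SE 0.19), RPL10 by −1.60 (SE 0.22) and RPL28 by −1.47 (SE 0.19). The other stalk genes moved less than RPLP0: RPLP1 by −0.65 (SE 0.19, edgeR adjusted p = 0.00251) and RPLP2 by −0.37 (SE 0.18, edgeR adjusted p = 0.0655). RPL26L1 was the only member higher in these libraries, at 22.5, 38.0 and 55.4 CPM in islets and 6.73, 13.2 and 23.3 CPM in pancreas (0.79, SE 0.14, edgeR adjusted p = 7.94e-06). RPL14 gave 0.36 (SE 0.20, edgeR adjusted p = 0.118).

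In these 27 libraries 1 member was higher and 29 were lower in islets (median −0.64), against 35.4% higher and 35% lower of 12562 genes. The lower count was the same with RLE scaling and close to it with upper-quartile scaling, but not on library totals alone. Acinar genes took 10.8 to 28.8% of the counts in these pancreas libraries and at most 0.0556% in these islets. The part of the acinar share in the counts was not tested. When libraries were scaled by their totals alone the median of all genes moved to 0.54, that of the members to −0.06, and the counts to 8 higher and 9 lower, beside 55.9% higher and 17.8% lower of all genes. With the animal as a block in the 16 libraries of animals with both tissues in this set, TMM scaling gave 1 higher and 33 lower members, beside 32% and 31% of all genes. On either scale RPSA, RPS2, RPS27L, RPLP0, RPL10 and RPL28 were lower and RPL26L1 was higher in the 27 libraries. By library total their values were, in this order, −1.63, −1.50, −1.39, −1.17, −1.05, −0.88 and 1.34. For RPL5, RPS3, RPS3A, RPL36A and RPL36AL the call was higher by library total (0.51, 0.51, 0.49, 0.57 and 0.46) and none with TMM scaling (−0.06, −0.05, −0.07, −0.01 and −0.10), so their direction depends on the reference.

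Within the 8 animals with both libraries in this set, RPSA, RPS2, RPS27L, RPL10, RPL28 and RPS15 had less CPM in islets than in pancreas in 8 of 8, and RPLP0 in 7 of 8, the exception being 16IS5 (257 CPM in pancreas and 259 CPM in islets). RPL26L1 and RPS3 had more in islets in 8 of 8. For RPSA the pair closest together by ratio was 15LS26, with 413 CPM in pancreas and 214 CPM in islets, and for RPL26L1 it was the same animal, with 23.2 CPM and 34.9 CPM.

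**Figure D5:**
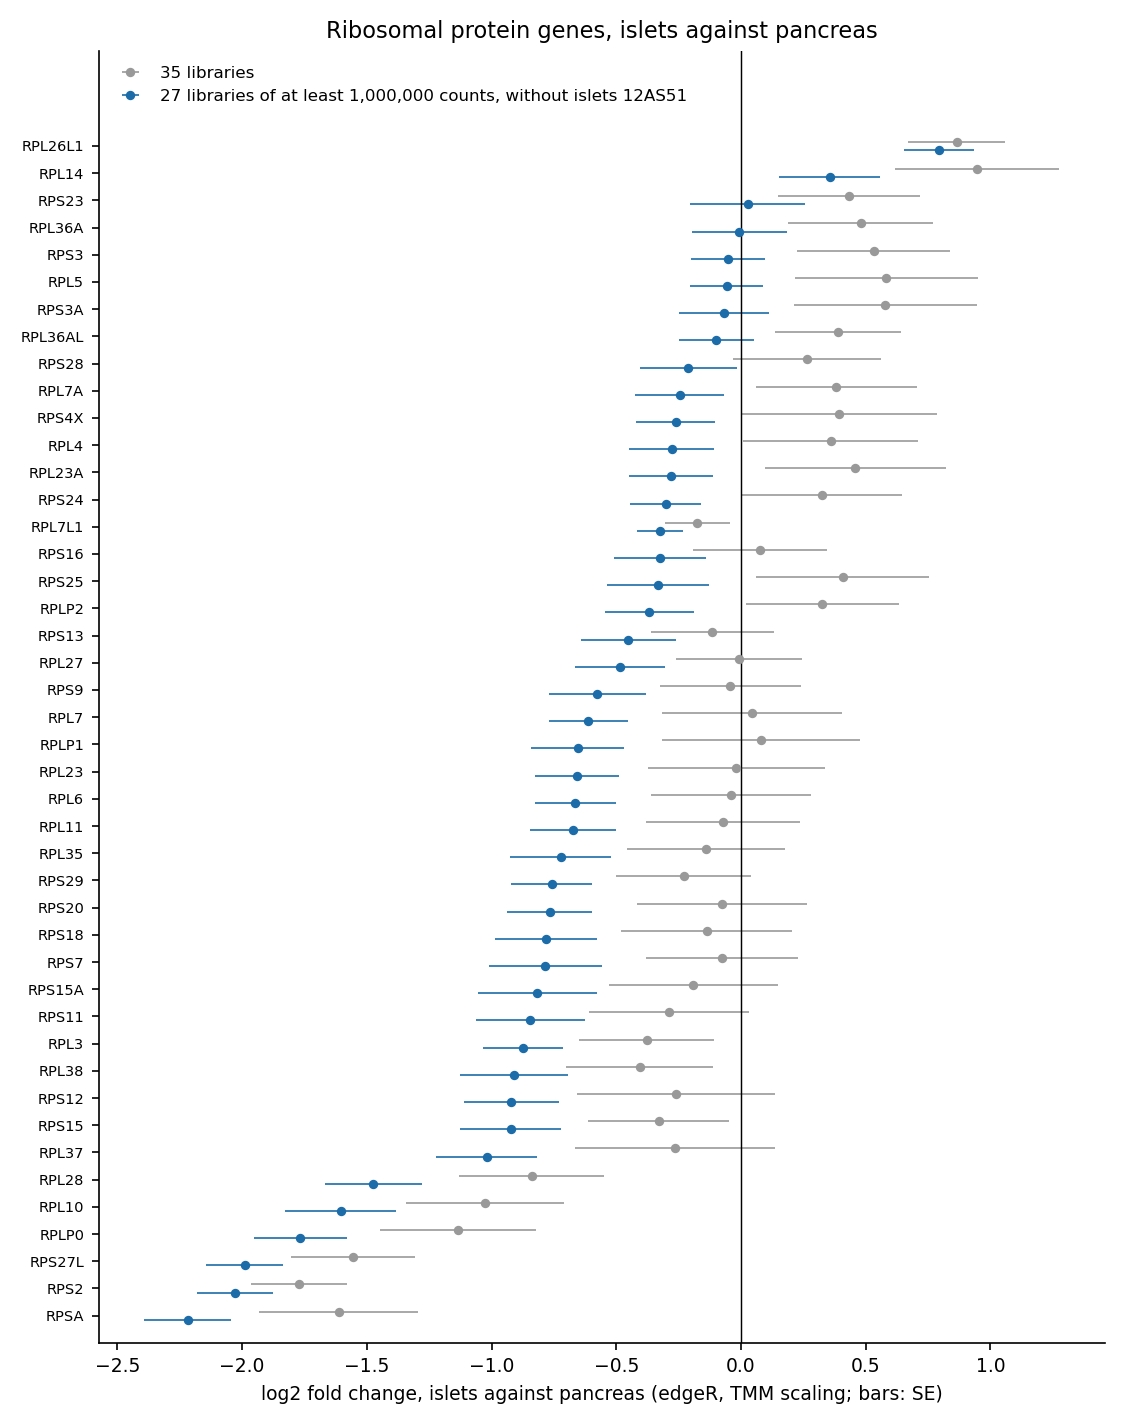
Log2 fold change of islets against pancreas for the tested members, except 2 that are not drawn, with standard errors, in all 35 libraries (grey) and in the 27 libraries of at least 1000000 counts without islet library 12AS51 (blue). RPSA, RPS2, RPS27L, RPLP0, RPL10 and RPL28 lie furthest to the left in both, RPL26L1 stays to the right, and the median of the members moves from −0.04 to −0.64.

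The partners of the ribosome had calls in both directions between the tissues. The counts of these lists, in the same 27 libraries with TMM scaling, stand beside 35.4% higher and 35% lower of all genes. Of 17 elongation and TOP genes 4 were higher in islets and 9 lower (median −0.48). TPT1 and EIF3L were lower (−2.13, SE 0.18, and −1.57, SE 0.13) and EIF3E and NAP1L1 higher (0.72, SE 0.14, and 0.55, SE 0.12). TPT1 had 633, 1092 and 1728 CPM in islets and 1865, 3148 and 4065 CPM in pancreas, with no overlap. Of 22 initiation factors 3 were higher and 8 lower, LARP1, which binds TOP messenger RNAs, by −2.10 (SE 0.10) and EIF4EBP1, an inhibitor of EIF4E, by −1.88 (SE 0.20), while the cap-binding factor EIF4E itself was higher by 0.95 (SE 0.11).

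Among regulators, the largest difference was that of MYC, a transcription factor that drives ribosome production, with 1.21, 3.40 and 8.30 CPM in islets and 44.6, 78.6 and 126 CPM in pancreas (−5.24, SE 0.24, edgeR adjusted p = 8.28e-18). RPS6KB1, the main kinase of ribosomal protein S6, was lower by −1.72 (SE 0.10) and RPS6KL1, a kinase-like relative, higher by 2.92 (SE 0.28). Of 32 ribosome biogenesis genes 5 were higher and 14 lower (median −0.25), RRP9 lowest (−2.24, SE 0.17) and WDR12 highest (0.81, SE 0.13). Of 60 mitochondrial ribosomal protein genes 10 were higher and 16 lower (median −0.19). All 11 tested small nucleolar RNA genes were lower in islets (median −2.16), from SNORD33 (−4.41, SE 0.29) to SNORA68 (−0.68, SE 0.27).

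Lastly, the density difference in islets was set against that in pancreas in 1 model of 34 libraries, which uses the same samples as both comparisons above. The difference was lower in islets for 45 of 46 members and higher for 0, where 17.7% of 14337 genes were lower and 22.2% higher. The median was −2.10, with RPS4X at −2.81 (SE 0.61), RPS12 at −2.77 (SE 0.60) and RPSA at −2.49 (SE 0.43), and RPL26L1 at 0.06 (SE 0.38, edgeR adjusted p = 0.928) did not pass. With the animal as a block (limma-voom) 45 members were again lower, where 21.3% of all genes were lower and 20.6% higher. Without the shallow libraries 0 of 46 passed, where 0.0592% of 15210 genes were lower and 0.342% higher, and the median was −0.89.

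The islet library of 12AS51 had the largest total of all (6702589 counts) and subunit sums within the range of the shallow pancreas libraries, 617 CPM for the small and 829 CPM for the large. Its single genes matched those libraries less closely: of 47 members 29 lay inside the shallow range, 10 below it and 8 above it. RPS4X stood at 38.8 CPM, RPL5 at 54.01 CPM, RPSA at 13.1 CPM and RPLP2, a stalk protein, at 85.9 CPM, each below every labelled islet library. TPT1 had 67.7 CPM there and EEF2, the factor that moves the ribosome along, 156 CPM, while SNORA66 had 46.4 CPM, above the 0.652 to 14.5 CPM of the labelled islets.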

How the data were processed

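The values analysed are whole-number read counts per gene, 1 table per tissue, which the authors deposited. Per the submitters' processing notes, the tools were Subread, HISAT2 2.0.2, edgeR and FastQC and the pig build was susScr3, without roles or order. For the annotation and any strand setting, the sources used here give nothing. Of 37 labelled samples, 35 had a column that matched their title. The other 2 samples are not analysed here, and 1 column that matched no label was not used. No columns held identical values. The single values of 2 members are not reported here, although these members enter every count and median. Gene symbols came from a table of Ensembl identifiers. The naming table held 57 symbols that follow the member rule, and 6 of these had no entry in the count tables. Groups follow the density label of each sample. No genome of the authors' build was used, so no sequence or coordinate is given and no level was divided by gene length. CPM values of different genes are therefore not compared.

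The test was that of edgeR 4.0.16 under R 4.3.3 (filterByExpr, TMM scaling, robust quasi-likelihood fit, two-sided), with Benjamini-Hochberg adjustment over all genes tested and a threshold of 0.05. Standard errors are the log2 fold change divided by the square root of the F statistic. Intervals are 95%, and a count of 0 was given a floor of 3 counts per library, or over the pool where counts were pooled. The steps were tested on simulated counts, drawn for each comparison from the pooled profile of its libraries. Such counts lack the differing composition of the shallow libraries, so that test says nothing about its effect. Alternatives were DESeq2 1.42.0, limma-voom 3.58.1, other scalings and filters, covariates, subsets of libraries and the leaving out of each library. Several of them, among them the tissue comparison without the islet library of 12AS51, were chosen after seeing the data. Descriptive values and plots used Python 3.11.15 with pandas 2.3.3, scipy 1.17.1 and matplotlib 3.10.9.

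The members and gene lists were chosen with earlier results of these data known. Genes were named by rule: a set list of stalk, paralog and well-studied members, the 5 largest and 5 smallest log2 fold changes in each comparison, called members against the majority, the 5 highest mean CPM per tissue, members without a count, the 2 most changed called genes in each direction of every other list, and all tested small nucleolar RNAs of the host list. Not every gene that this rule picks is given with values. RPL6 and RPS24, of the highest mean CPM, are not, and for density in islets only some of the 5 at each end are. RPS23, RPL37, EEF2, EIF6, EIF5B and the small nucleolar RNAs below the filter were named after their values were seen. The animal codes in the titles pair the tissues, since both libraries then come from the same animal. The deviations of an animal's 2 libraries from the means of their tissues correlated by −0.569 to 0.257 (median 0.0254, 16 animals, 17338 genes). They correlated by over 0.1 in 7 of the animals. The means were taken over each tissue, not within density groups.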

Additional observations from a re-analysis of the deposited data

Results flagged for a closer look

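Among 116 sets of values tested, 4 held 1 library far from the rest of its group. Chance would mark about 1 in 20 sets if they were independent and each came from 1 population. These sets share their libraries, and the Low pancreas mixes shallow and deeper libraries, so the 4 are not judged against that rate. RPS27L had 102.8 CPM in the High pancreas library of 15LS26, where the other High libraries had 35.3 to 65.0. In the Low pancreas library of 15LS30, one of the 2 deeper Low libraries, RPS3A stood at 546 CPM against 13.5 to 251 in the other Low libraries, RPS15A at 242 against 3.77 to 105, and RPL14 at 189.9 against 3.77 to 61.8. These values of 15LS30 lay inside the ranges of the High libraries, which were 300 to 645, 146 to 359 and 106 to 278 CPM.

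The density difference differed between islets and pancreas for 45 members, all lower in islets, by the edgeR test of the difference itself. Of the 14337 genes tested, 17.7% were lower and 22.2% higher. Among the smallest differences that passed were RPL7L1 (−0.70), RPS2 (−0.93), RPS27L (−1.47) and RPL36AL (−1.48), and among the largest were RPS18 (−2.55), RPLP1 (−2.57), RPS12 (−2.77) and RPS4X (−2.81), all on the log2 scale, islets minus pancreas. The test shares its samples with both density comparisons, and no member passed it without the shallow pancreas libraries. The part of depth and acinar share in these differences was not tested beyond those values.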

How the results depend on the processing

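Low library totals, the acinar share and the Low label cannot be told apart in the pancreas, and the shallow libraries hold too few counts to place single genes well. For High against Low pancreas, 43 members were higher with all libraries, and 0 with the acinar covariate, the log2 total covariate or the deep libraries only, and 3 with the code 14 covariate. The median of 1.95 became 0.44, 0.38, 0.78 and 1.09. DESeq2, limma-voom and upper-quartile scaling called 43, the library total alone 41, and animals with 1 label for both tissues 42. Where no share of all genes is given for a fit, its count is not read as a result about the members. The count of lower members went from 0 to 1 with the 1 CPM filter (RPL3L) and to 2 without a filter (RPL3L and RPS21), where more genes are tested. RPL3L enters the 1 CPM filter only through the shallow libraries, where it is high, and RPS21 has 13 counts over all pancreas libraries, so these calls support nothing. On a total without acinar and mitochondrial genes, the mean summed CPM of the small and large subunit was 7492 and 9856 in the High pancreas, 1644 and 2295 in all Low libraries and 597 and 838 in the shallow ones.

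Single genes turned direction as follows, and the cause was not tested. In pancreas RPS2 was at −0.56, −0.12 and −0.30 with the acinar covariate, the deep libraries and the log2 total covariate, RPL7L1 at −0.00061 with the last, and RPL26L1 at 0.26 with the 1 CPM filter, 0.046 by limma-voom and 0.35 without a filter. In islets RPS15 was at −0.0024 and −0.12 and RPS7 at −0.11 and −0.22 with same-label animals and the pan-endocrine covariate, RPS7 at −0.013 with the top 10 gene share as covariate, and RPL10 at −0.018 with code 14 and −0.16 with the pan-endocrine covariate. Without the islet library of 15AS28 RPS15 was at −0.017 and RPS7 at −0.061. For the difference of differences, RPL26L1 was at −0.23 by limma-voom with or without the block.

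Between the tissues, 2 members were higher and 6 lower with all libraries. The counts below are not read as a result about the members where no share of all genes is given. The higher count was 1 in the deep libraries, with or without 12AS51, without the 2 islet libraries with pancreas as source name, and under RLE or upper-quartile scaling. It was 4 without a filter, 12 by limma-voom and 14 on library totals alone (8 in the deep libraries without 12AS51). The lower count was 28 in the deep libraries, 29 without 12AS51, without the 2 source-name libraries or with RLE scaling, 31 with upper-quartile scaling, and 3 by limma-voom or on library totals with all libraries. RPL5, RPS3A and RPS3 turned in the deep libraries (−0.085, −0.076 and −0.066), without 12AS51 (−0.058, −0.068 and −0.052), with RLE (−0.058, −0.067 and −0.052) or upper-quartile scaling (−0.090, −0.10 and −0.086), and without the 2 source-name libraries (−0.026, −0.022 and −0.026). The cause was not tested.

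With the animal as a replicate block, 5 members were higher and 3 lower over all paired libraries (median 0.45). In the deep libraries without 12AS51 the block gave 1 and 33, a median of −0.78, and −0.14 for RPL5, −0.24 for RPS3A and −0.16 for RPS3. For the difference of differences, limma-voom gave 45 lower members with and without the block, with medians of −2.57 and −2.55. Without the block the share of all genes is not given, so that count is not read as a result about the members. The tissue calls that the block changed over all paired libraries are given with the tissue comparison. In the deep libraries alone the difference of differences had 0 lower members and a median of −0.89.

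Leaving out each library in turn gave 43 to 45 higher and 0 lower members in pancreas (median 1.82 to 2.18), 0 in either direction in islets (median −0.10 to 0.10), and 2 higher and 6 to 7 lower between the tissues (median −0.12 to 0.10). The shares of all genes called in these fits are not given, so the counts are not read as a result about the members. RPL26L1 in pancreas ranged from −0.22 to 0.11, and in islets RPL10 from −0.0076 to 0.30, RPS15 from −0.017 to 0.34 and RPS7 from −0.061 to 0.34. Of 157 alternative values for counts, medians and levels, 123 stayed near the main value. Nearness was judged by fold for counts and by the standard deviation within groups for medians and levels. Of 589 values for single genes, 453 kept their direction and side of the threshold.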

Other observations

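Marker genes of other cell types were also compared in the pancreas. Between High and Low pancreas, 13 of 13 acinar genes were higher by edgeR's quasi-likelihood test and 3 of 5 duct and 2 of 4 endothelial genes were too. Of 14 pan-endocrine genes tested 0 were higher and 5 lower, of 6 myeloid genes 3 were lower, and of 6 fibroblast and stellate genes 1 was lower. Of all genes tested 18.8% were higher and 21.5% lower. No list was called in either direction in the 10 pancreas libraries of at least 1000000 counts, where no gene was. The pooled High to shallow ratio had a median of 3.71 for duct, 2.12 for endothelial, 1.07 for fibroblast and stellate, 0.58 for myeloid, 0.17 for lymphocyte and 0.13 for erythroid genes, on 3 to 6 genes each. Their part in the ribosomal protein values was not tested.

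Among the mitochondrial ribosomal proteins, MRPL48, a protein of the large mitochondrial subunit, stood furthest apart between the tissues. It had 84.3 to 163 CPM in High pancreas and pooled to 13.6 CPM in the labelled islets against 125 CPM in the deeper pancreas libraries. Its log2 fold change in the 27 libraries without 12AS51 was −3.78 (SE 0.13, edgeR adjusted p = 8.2e-22). It was also higher in High than in Low pancreas with all libraries (1.59, SE 0.37, edgeR adjusted p = 0.00187), and 27.98 CPM was its median in the shallow Low libraries.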
